A study of Mus musculus with 13 samples.

Results

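LINE-1 (L1) elements are retrotransposons, some of which still copy themselves in the mouse germ line. Their promoters lie at the 5′ end, built in the A, Gf, T and F types from tandem repeats called monomers, while most copies in the genome have lost the 5′ end and keep only the 3′ part. piRNAs (24- to 33-nt small RNAs bound by PIWI proteins) guide the silencing of L1 by cutting its transcripts and, in fetal germ cells, by directing DNA methylation of its promoters. Antisense piRNAs can pair with the L1 transcript. Primary piRNAs usually begin with U, and when 1 PIWI protein cuts the transcript across from its guide, the new piRNA shares a 10-nt overlap with that guide and carries A at position 10 (the ping-pong cycle).

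The small RNAs described here match the 5′ ends of L1. They were taken from per-library tables that list piRNA levels for 262 retrotransposon consensus sequences, as the rows whose name starts with L1 and ends in 5end. There were 6 such rows of the 16 that start with L1: L1Md_A_5end, L1Md_Gf_5end and L1Md_F_5end, which stand for the A, Gf and F promoter types, and L1_Mus3_5end, L1VL1_5end and L1VL2_5end, which stand for other L1 families. A 5′-end row for the T type was not among the rows analysed here. Each consensus stands for many genomic copies, so it has no single genomic position.

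Male germ cells of C57BL6/J mice aged 3 to 4 weeks were stained with Hoechst and sorted into spermatogonia (SG), leptotene/zygotene (L/Z) spermatocytes, pachytene/diplotene (P/D) spermatocytes and round spermatids (RS). In a first set of 5 libraries, SG, P/D and RS had 1 library each and L/Z had 2 replicates. A second set of 8 libraries held SG and L/Z, with 2 biological replicates of each, every one sequenced as 2 technical replicates, a 50-bp and a 100-bp run, which were averaged. The table headers of the second set carry a tag that names a knockout of Pld6, the mitochondrial nuclease that makes primary piRNAs, and these samples are called tagged SG and tagged L/Z here. The sample labels give the same strain and age for both sets and no genotype, so the tag cannot be told apart from the other differences between the sets, sequencing run and depth. The study describes a Pld6 null line backcrossed to this strain. It sequenced small RNAs of spermatogonia and sorted L/Z spermatocytes of this line and compared them with wild-type cells. The labels call the replicates biological without saying that they came from separate animals, so p-values measure only the spread between these samples.

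The samples held 1810805 to 29956080 reads, with tagged SG replicate 2 the shallowest. Reads of 24-33 nt made up 29.8% of the SG library, 45.2% and 39.3% in L/Z, 84.5% in P/D and 83.1% in RS. In the tagged samples they made up 14.8% to 23.5%. Messenger RNA markers of the sorted stages cannot be read in small RNA libraries. Levels are given in RPM (reads per 1000000 reads of the library), with reads that match several sequences divided among them, so the read numbers and the 95% Wilson intervals below are approximate and cover counting error only.

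The sequences below are reads that lie in a 217-base window of the A-type monomer, the promoter repeat amplified for bisulfite sequencing in the study. They are shown because they carry the strand and overlap pattern described further on. The sense strand is that of the forward A-monomer RT-PCR primer, which lies at base 127 of the window, and positions count from 1 at the window's 5′ end. The capitals mark bases 1 to 10, the part that overlaps in a pair of opposite reads. They include the most frequent reads of up to 30 nt on each strand in the first set, and their most frequent 10-nt partners, whose capitals are the reverse complement of each other.
sense, 5′ end at 23: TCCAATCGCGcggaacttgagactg
antisense partner, 5′ end at 32: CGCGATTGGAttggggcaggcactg
sense, 5′ end at 23, with 1 mismatch to the window: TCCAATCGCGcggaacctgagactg
sense, 5′ end at 40: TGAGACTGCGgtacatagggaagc
antisense, 5′ end at 202: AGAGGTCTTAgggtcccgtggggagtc
sense partner, 5′ end at 193: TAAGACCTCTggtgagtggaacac
antisense, 5′ end at 143: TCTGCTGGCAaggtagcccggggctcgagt
antisense, 5′ end at 27: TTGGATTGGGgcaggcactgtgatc
sense partner, 5′ end at 18, with 1 mismatch: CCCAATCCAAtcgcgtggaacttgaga
The first of these was read 13 times in SG, 52 and 50 times in the L/Z replicates, 12 times in P/D and 2 times in RS. In the tagged samples it was read once, in L/Z replicate 2. Its antisense partner was read 3 times in SG and 1 and 3 times in L/Z, and in no other sample. Within this length, the reads at 40 and 143 had no partner in the first set.

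A-type promoter piRNAs gave the most reads of the 6 rows in SG and L/Z and the second fewest in RS, counted per row and not per length, since row lengths are not in the tables. L1Md_A_5end stood at 145 RPM in SG, 80.9 and 213 RPM in the L/Z replicates, 17.6 RPM in P/D and 8.88 RPM in RS. In RPM, the L/Z mean of 147 ± 93.2 (SD, n = 2) was 1.01 times the SG level and 8.34 times the P/D level. No test was made between SG, P/D and RS, which had 1 library each. The share of reads that are mature microRNAs also differed between stages, from 15.7% in SG to 0.94% in P/D, and per percent of microRNA reads L1Md_A_5end in P/D was 2.03 times that in SG, the opposite direction. As a share of all listed retrotransposon piRNAs it was 0.44% in SG, 0.366% and 0.564% in L/Z, 0.115% in P/D and 0.136% in RS.

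Gf-type piRNAs gave the second most reads in SG and L/Z. L1Md_Gf_5end stood at 75.8 RPM in SG, 34.4 and 123 RPM in L/Z, 40.7 RPM in P/D and 17.2 RPM in RS. The Gf type, like the A type, belongs to the young L1 subfamilies that can still move. Its share of the listed total was 0.23% in SG, 0.156% and 0.326% in L/Z, 0.267% in P/D and 0.263% in RS, so the lower P/D level in RPM did not appear on that scale.

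The F type is an older promoter, and its piRNAs spanned a narrower range. L1Md_F_5end stood at 49.3 RPM in SG, 20.8 and 61.3 RPM in L/Z, 32.0 RPM in P/D and 31.7 RPM in RS. In RS it gave the most reads of the 6 rows, while in SG and both L/Z replicates it gave fewer than A and Gf. Per percent of microRNA reads, P/D was 10.8 times SG for F and 8.99 times SG for Gf.

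L1_Mus3, VL1 and VL2 are consensus sequences of other L1 families. L1_Mus3_5end stood at 42.6 RPM in SG, 28.7 and 65.0 RPM in L/Z, 41.0 RPM in P/D and 9.29 RPM in RS. L1VL1_5end stood at 16.5 RPM in SG, 8.64 and 22.8 RPM in L/Z, 12 RPM in P/D and 11.8 RPM in RS. L1VL2_5end stood at 6.42 RPM in SG, 4.68 and 8.67 RPM in L/Z, 8.23 RPM in P/D and 8.65 RPM in RS. For all 6 sequences the SG level lay between the L/Z replicates, so SG and L/Z could not be ordered, and L/Z replicate 2 was above replicate 1 each time. The P/D level also lay between the L/Z replicates for every sequence other than L1Md_A_5end, which was below both.

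**Figure D1:**
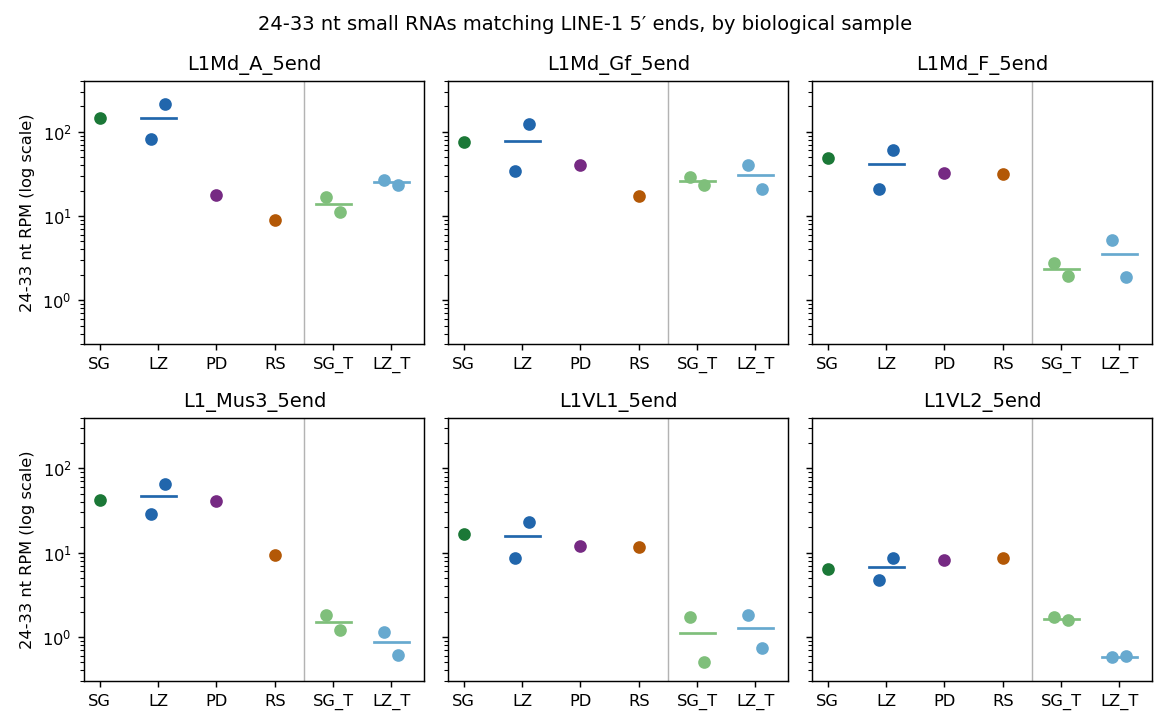
The 24-33 nt level of each of the 6 L1 5′-end sequences, in RPM on a log axis, with 1 point per biological sample and a line at the mean of groups with 2 samples (SG_T and LZ_T are the tagged samples, to the right of the grey line). L1Md_A_5end runs from 213 RPM in L/Z to 8.88 RPM in RS, and all 4 tagged samples lie below every SG and L/Z sample for A, F, Mus3, VL1 and VL2.

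Together the 6 sequences gave 335 RPM in SG, 178 and 493 RPM in L/Z, 152 RPM in P/D and 87.5 RPM in RS. The direction depends on the scale: per percent of microRNA reads the sum was 7.55 times higher in P/D than in SG and 3.67 times higher in RS. The A and Gf types made up 65.8% of this sum in SG and 64.7% and 68.0% in L/Z, against 38.5% in P/D and 29.8% in RS. Of all piRNAs on the 16 L1 rows, the 5′ ends took 2.97% in SG, 4.16% and 4.76% in L/Z, 9.40% in P/D and 11.04% in RS. Most L1 piRNAs thus fell on the L1 rows other than these 6 in every stage. Those rows hold coding, 3′-end and whole sequences, so part of their reads may also match a 5′ end. The share of the 6 rows was higher in P/D and RS, where the 16 rows together stood at 1612 and 793 RPM, against 11310 RPM in SG. The same element can be followed at both ends for 2 families. The ratio of the 5′ row to the 3′ row of L1Md_A was 0.303 in SG, 0.366 and 0.455 in L/Z, 0.286 in P/D and 0.604 in RS. For L1_Mus3 it was 0.273 in SG, 0.388 and 0.411 in L/Z, 0.584 in P/D and 0.367 in RS. Without row lengths, only the change of a ratio between samples can be read, not its size.

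The strand of these piRNAs differed by family and by stage. In SG, antisense reads made up 87.3% of L1_Mus3_5end (95% interval 84.3 to 89.8), 71.7% of L1VL2_5end and 68.7% of L1Md_F_5end, against 45.5% of L1Md_A_5end (43.3 to 47.7), 37.1% of L1VL1_5end and 29.4% of L1Md_Gf_5end (26.7 to 32.3). The A, Gf and VL1 5′-end piRNAs of SG were thus mainly sense, and the intervals of A, Gf and Mus3 do not overlap. The L/Z replicates gave 41.6% and 38.0% for A, 37.5% and 27.3% for Gf, 68.7% and 68.9% for F, and 92.8% and 87.5% for Mus3.

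In P/D spermatocytes the antisense share was higher for every one of the 6 sequences. It was 50.4% for A (44.0 to 56.7), 81.2% for Gf (77.7 to 84.3), 86.9% for F, 97.3% for Mus3, 91.0% for VL1 and 99.0% for VL2. For Gf, F, Mus3, VL1 and VL2 the P/D interval lay above those of SG and of both L/Z replicates. For A the P/D interval overlapped that of SG. Over the sum, the antisense share was 50.7% in SG, 53.9% and 46.2% in L/Z, 85.0% in P/D (83.3 to 86.4) and 77.4% in RS (74.8 to 79.8). The other L1 rows together also had a higher antisense share in P/D, 67.4% against 40.2% in SG and 44.7% and 44.6% in L/Z. So did all listed retrotransposons together, with 71.3% in P/D against 33.1% in SG and 45.4% and 41.4% in L/Z, so the difference was not particular to the 5′ ends.

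Length differed between stages as well. MILI binds mainly the shorter piRNAs of 24-27 nt and MIWI, which appears at pachytene, the longer ones. The 24- to 27-nt class made up 60.4% of the 5′-end sum in SG and 66.9% and 61.4% in L/Z, but 21.8% in P/D and 25.2% in RS. Among antisense reads it was 67.4% in SG, 69.3% and 66.6% in L/Z, 18.5% in P/D and 17.2% in RS. The antisense 28- to 33-nt class was therefore the largest in P/D, at 105 RPM over the 6 sequences, against 55.5 RPM in SG, 29.5 and 76.0 RPM in L/Z and 56.1 RPM in RS. For L1Md_Gf_5end this class stood at 30.1 RPM in P/D, against 8.89 RPM in SG and 5.95 and 15.6 RPM in L/Z, although the total Gf level in RPM was lower in P/D than in SG. For L1_Mus3_5end it stood at 29.1 RPM in P/D, against 8.38 RPM in SG and 5.67 and 12.4 RPM in L/Z. For L1Md_A_5end it was also the largest class of P/D but below its SG level in RPM, with 7.35 RPM in P/D, 22.0 RPM in SG and 10.3 and 29.5 RPM in L/Z.

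**Figure D2:**
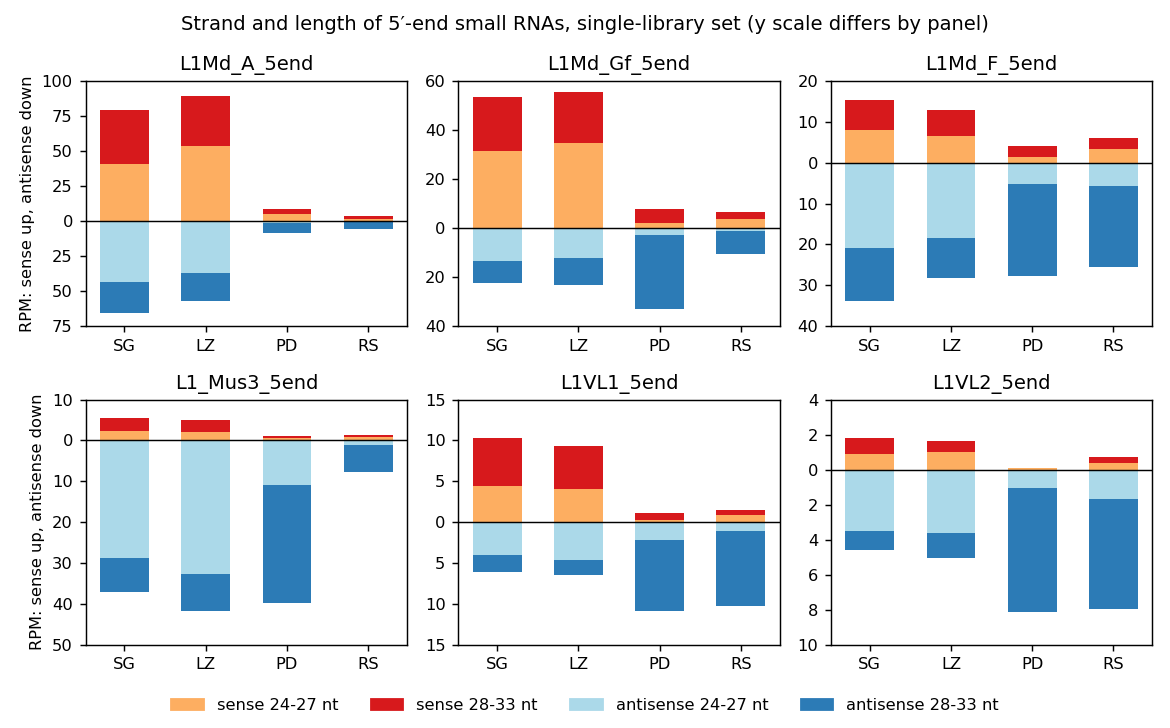
Sense (up) and antisense (down) RPM of each 5′-end sequence in the first set, divided into 24-27 nt and 28-33 nt, with L/Z as the mean of 2 replicates and a y scale of its own in each panel. Antisense 28-33 nt piRNAs are the largest class in P/D for all 6, from 30.1 RPM for Gf and 29.1 RPM for Mus3 to 7.35 RPM for A and 7.10 RPM for VL2.

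Shorter and longer reads showed other patterns. At 11-18 nt, L1Md_A_5end had 507 RPM of sense reads in SG, against 48.4 and 51.0 RPM in L/Z, 21.6 RPM in P/D and 26.3 RPM in RS. Reads this short were placed with up to 2 mismatches in the tables and can match many sequences. In the A-monomer window, exact sense matches of 11-18 nt came to 3.31 RPM in SG and 3.40 and 5.27 RPM in L/Z. Exact matches in the window thus did not show the excess of the SG library. They leave out mismatched reads and the rest of the row, so they cannot say where the excess lies. At 34-48 nt the 6 sequences together gave 4.42 to 13.3 RPM in the first set.

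The first question for the tagged samples is how they differ from SG and L/Z of the first set. L1Md_A_5end stood at 16.7 and 11.2 RPM in tagged SG and 26.9 and 23.5 RPM in tagged L/Z. All 4 values lie below the lowest value of the first set's SG and L/Z, 80.9 RPM. L1Md_Gf_5end stood at 28.7 and 23.5 RPM in tagged SG and at 40.4 and 20.8 RPM in tagged L/Z, and here the sets overlap, because L/Z replicate 1 of the first set stood at 34.4 RPM. L1Md_F_5end stood at 2.78 and 1.96 RPM in tagged SG and 5.13 and 1.91 RPM in tagged L/Z. The other 3 sequences lay between 0.5 and 1.84 RPM in the 4 tagged samples, each resting on 0.917 to 15.7 reads per sample. L1Md_A_5end rested on 20.2 to 247 reads and L1Md_Gf_5end on 42.8 to 297 reads in these samples.

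limma on log2(RPM + 1), fitted over the 135 sequences with a mean of at least 1 RPM in SG, L/Z and their tagged counterparts, called all 6 5′-end sequences lower in tagged L/Z than in L/Z, at an adjusted p (Benjamini-Hochberg, over all 135) under 0.05. Of all sequences tested, 92.6% were called lower, so the count of members is close to the background. The filter was applied to both sets together, here and for SG below, while 58 sequences passed it within the tagged set alone. Sequences that passed only through high levels in the first set could hardly be called other than lower. Mus3 and VL2, with means of 0.87 and 0.58 RPM in tagged L/Z, lay under 1 RPM there. The log2 difference was -2.34 ± 0.44 (SE) for L1Md_A_5end, with an adjusted p of 8.65e-05, and -1.14 ± 0.50 for L1Md_Gf_5end, with an adjusted p of 0.0398. The Gf call was lost without L/Z replicate 2 (-0.24, adjusted p = 0.643) or tagged L/Z replicate 2 (-0.68, adjusted p = 0.249), and under 5 other settings. Mus3 had the largest of the 6, -4.58 ± 0.42, and F, VL1 and VL2 lay at -3.13, -2.78 and -2.23. The median over the 6 was -2.56, against -2.88 over all sequences tested and -4.62 over the 10 other L1 rows, which were called lower as well.

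In SG the picture was similar in size. All 6 sequences were called lower in tagged SG than in SG, where 89.6% of the 135 sequences were called lower, with the single SG library assumed to vary like the other groups. The log2 difference was -3.31 ± 0.54 for A, -3.91 ± 0.59 for F, -4.13 ± 0.51 for Mus3 and -3.12 ± 0.57 for VL1. Gf and VL2 had the smallest, -1.51 ± 0.62 (adjusted p = 0.0295) and -1.49 ± 0.47 (adjusted p = 0.00702), and these 2 turn round, to 1.78 and 1.18, when each sample is scaled to its listed retrotransposon total. On that scale A was at -0.06 (adjusted p = 0.926), F at -1.003 (adjusted p = 0.182) and VL1 at -0.69 (adjusted p = 0.362), so only Mus3 was still called lower, at -1.40 (adjusted p = 0.0297). That total was 3745 and 2800 RPM in tagged SG, against 32895 RPM in SG. The median over the 6 was -3.21, against -2.99 over all sequences tested and -5.51 over the 10 other L1 rows.

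No 5′-end sequence passed the test of whether the difference between the sets was unequal in L/Z and SG. Here 19.3% of the 135 sequences were called in either direction, and no 5′-end sequence had an unadjusted p under 0.05. The estimates ran from -0.75 for VL2 to 0.97 ± 0.70 for A, where a positive value means a smaller drop in L/Z than in SG. Scaled to the listed total, 4 of the 6 were called with a negative estimate, that is, with tagged levels relatively lower in L/Z than in SG. The share of all sequences called on that scale was not counted.

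Within the tagged set, limma on the 58 sequences with a mean of at least 1 RPM called none of the 6 in tagged L/Z against tagged SG, while 43.1% of the sequences tested were called higher. L1Md_A_5end had a log2 difference of 0.83 ± 0.35 with an adjusted p of 0.0727, and L1VL2_5end one of -0.75 ± 0.33 with an adjusted p of 0.0829. Without adjustment, 1 of the 6 passed as higher and 1 as lower. The median of the 6 was 0.14, against 0.80 over all tested. When each sample was scaled to its listed total, which stood at 22388 and 23471 RPM in tagged L/Z, all 6 were called lower, so the direction depends on the scale. The share of all sequences called lower on that scale was not counted, so this count has no background beside it. Of the 10 other L1 rows, 2 were called higher, the 3′ row of L1Md_A among them at 1.01 ± 0.38 (adjusted p = 0.0478).

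**Figure D3:**
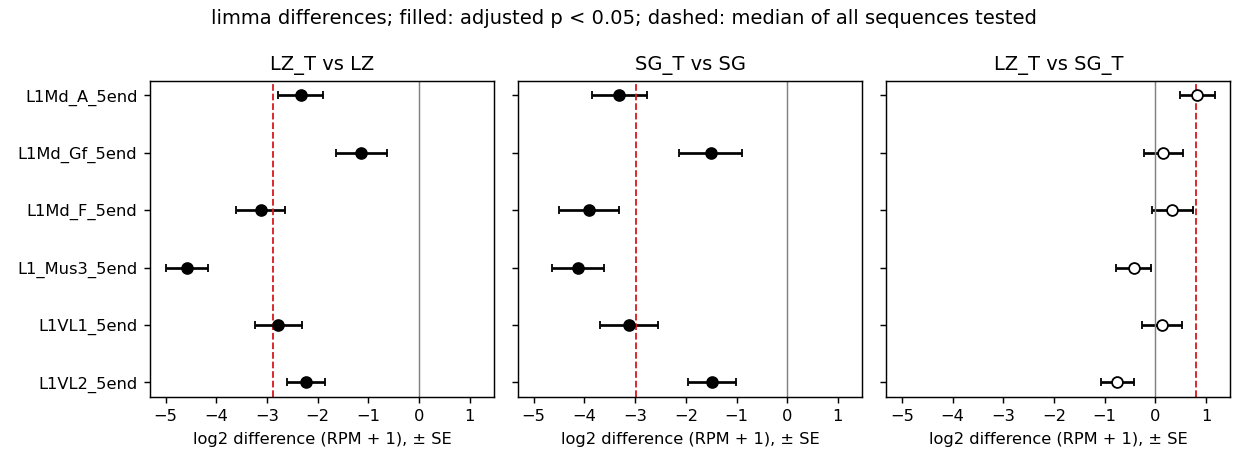
limma log2 differences of RPM + 1 (points, with SE bars) of the 6 sequences in tagged L/Z against L/Z, tagged SG against SG and tagged L/Z against tagged SG (LZ_T, SG_T), filled where the adjusted p is under 0.05. The dashed line is the median of all sequences tested, at -2.88, -2.99 and 0.80. Gf and VL2 lie to its right in the first 2 panels, and A and VL1 in the first but not the second. In the third, A alone lies to its right, at 0.83.

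The makeup of the 24- to 33-nt reads on the L1 rows differed between the sets as well. They are not called piRNAs in the tagged samples, where U came first in 12.5% to 28.04% of A-monomer window reads, as given below. Whether they are piRNAs was not tested. The following comparisons of single values set the 3 SG and L/Z samples of the first set against the 4 tagged samples by an exact two-sided permutation test, for 12 measures chosen after their values were seen. With 3 against 4 samples the smallest p that this test can give is 0.0571, which becomes 0.0762 with Benjamini-Hochberg adjustment over the 12, so none can pass 0.05. The 5′ ends took 15.9% and 13.4% of these reads in tagged SG and 15.8% and 12.2% in tagged L/Z. All lay above the 2.97% to 4.76% of SG and L/Z in the first set (p = 0.0571, exact). The A and Gf types made up 85.0% to 92.0% of the 5′-end sum in the tagged samples, against 64.7% to 68.0% (p = 0.0571, exact).

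At the 2 ends of the A element the difference between the sets was unequal. The L1Md_A ratio of 5′ to 3′ was 1.51 and 1.66 in tagged SG and 1.85 and 1.00 in tagged L/Z, all above the 0.303 to 0.455 of the first set's SG and L/Z (p = 0.0571, exact). The 3′ row of L1Md_A had a log2 difference of -4.05 ± 0.43 in L/Z and -5.63 ± 0.53 in SG, larger in size than its 5′ row in both. For L1_Mus3 the ratio in the tagged samples ran from 0.185 to 0.565 and overlapped the first set (p = 0.857, exact). L1_Mm_orf2, part of the coding body of L1 and the L1 row with most piRNA reads in SG, L/Z and the tagged samples, stood at 5125 RPM in SG and 146 to 243 RPM in the tagged samples.

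The antisense share of the 5′-end sum was 34.6% and 17.4% in tagged SG and 22.5% and 27.3% in tagged L/Z, all below the 46.2% to 53.9% of SG and L/Z in the first set (p = 0.0571, exact). The 50-bp runs alone, the read length of the first set, gave 19.3% to 27.3%. For L1Md_A_5end the tagged samples gave 7.53% to 24.7%, below the 38.0% to 45.5% of the first set (p = 0.0571, exact). The sets overlapped for L1Md_Gf_5end, at 14.6% to 33.8% against 27.3% to 37.5% (p = 0.229, exact).

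Longer reads went the other way for Gf. At 34-48 nt, L1Md_Gf_5end gave 16.02 and 10.1 RPM in tagged SG and 18.6 and 7.23 RPM in tagged L/Z, above the 1.46 to 3.58 RPM of SG and L/Z in the first set (p = 0.0571, exact). The 50-bp runs of the tagged samples alone gave 8.21 to 16.5 RPM. For L1Md_A_5end the 34- to 48-nt level was 3.23 to 11.3 RPM in the tagged samples and overlapped the first set's 1.46 to 6.30 RPM (p = 0.171, exact).

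The A-monomer window shows part of the A-type 24- to 33-nt reads, base by base. Reads of 24-33 nt that matched it with at most 2 mismatches came to 311 in SG, 563 and 720 in L/Z, 47 in P/D and 19 in RS, that is 23.4 RPM in SG, 18.8 and 41.2 RPM in L/Z, 3.54 RPM in P/D and 1.52 RPM in RS. The tagged samples held 46 and 8 reads in SG and 61 and 107 in L/Z, or 4.42 to 9.94 RPM. Sense reads made up 51.8% in SG, 77.1% and 72.1% in L/Z, 95.7% in P/D and 89.5% in RS, where only 2 antisense reads were seen in each of P/D and RS. The window thus went against the whole L1Md_A_5end row, whose antisense share was 50.4% in P/D and 60.9% in RS, while the window held 4.26% and 10.5%. The modal length was 25 nt in all 5 samples of the first set.

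Sense reads in the first set gathered at a few 5′ ends. Of all sense reads, 52.4% began at base 23 of the window, 18.8% at base 40 and 7.99% at base 193. The share at base 23 was 43.5% in SG, 52.1% and 54.1% in L/Z, 62.2% in P/D and 64.7% in RS. Antisense 5′ ends were more spread, with 13.4% at base 143, 12.8% at base 202 and 10.1% at base 32. The tagged samples held few sense reads at base 23: 0 of 41 and 0 of 7 in SG, which allows a share of up to 7.32% and 42.9%, and 2 of 46 and 3 of 71 in L/Z. For tagged SG replicate 2, with 7 reads, that limit lies just below the 43.5% of SG, so little can be said of its share. In tagged SG replicate 1, 8 of the 41 sense reads (19.5%) began at base 21.

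**Figure D4:**
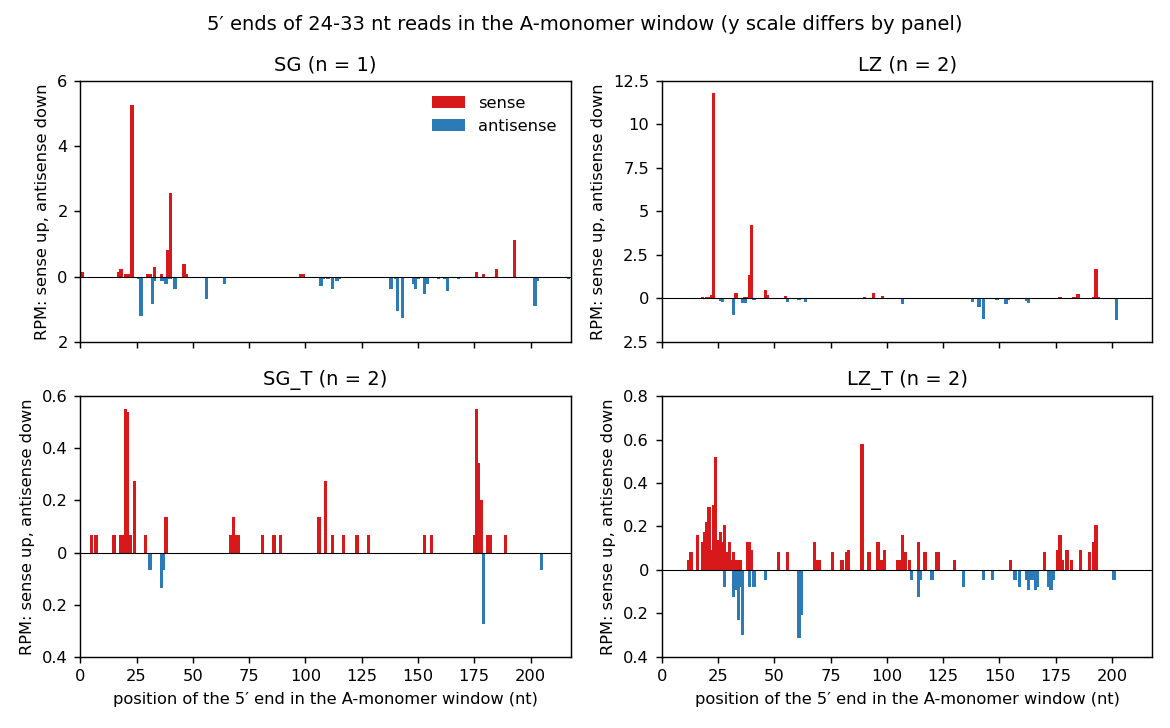
5′ ends of 24- to 33-nt reads along the 217-base A-monomer window, sense up and antisense down, in RPM (mean over the n samples of each panel, y scale differing by panel). SG and L/Z have their highest sense bar at base 23 and a smaller one at base 40. The tagged samples (SG_T, LZ_T) have highest sense bars of 0.55 and 0.58 RPM, at other bases, and the SG_T bar at base 176 rests on 2 reads.

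Bases 23 and 193 on the sense strand lie 9 bases upstream of bases 32 and 202 on the antisense strand, so each pair of reads overlaps by 10 nt at the 5′ ends. Counting every sense read against every antisense read, overlaps of 10 nt made up 22.9% of the pairs with an overlap of 1 to 20 nt in SG and 25.7% and 46.6% in the L/Z replicates. It was the most frequent overlap in both L/Z replicates, whereas in SG an overlap of 5 nt was more frequent. The pair at 23 and 32 made up 74.3% of the 10-nt pairs in SG and 84.9% and 82.2% in L/Z, so the signal rests mainly on this 1 site. Counting each pair of positions once, whatever its reads, 10-nt overlaps were 10 of 103 in SG and 8 of 103 and 9 of 135 in L/Z, or 7.92% over these samples, against 7.55% over the tagged samples, so the difference between the sets lies in read numbers at few positions. In tagged L/Z, 10-nt overlaps made up 6.34% and 9.81%, and other overlaps were more frequent. In tagged SG they were 1 of 50 pairs and 0 of 3, too few to give a share.

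The first base followed the same division. U was the first base of 78.1% of window reads in SG (95% interval 73.2 to 82.4), 82.1% and 80.6% in L/Z, 87.2% in P/D and 68.4% in RS (46.01 to 84.6). In the tagged samples it was 17.4% and 12.5% in SG and 21.3% and 28.04% in L/Z (p = 0.0571, exact). Counting each distinct sequence once, the shares were 69.8% to 74.7% in the first set's SG and L/Z and 12.5% to 29.1% in the tagged samples. Over all 24- to 33-nt reads of the libraries, whatever they match, U came first in 65.8% to 74.8% of SG and L/Z reads and in 31.5% to 42.3% of the tagged samples, so the first base differed between the sets over the whole size class too.

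A at position 10 was more frequent on antisense than on sense reads of the window in SG and L/Z. It stood in 38.7% of antisense reads in SG (31.2 to 46.7) and in 51.9% and 62.2% in L/Z, against 9.32%, 6.22% and 6.36% of sense reads. In tagged L/Z it stood in 6.67% and 8.33% of antisense reads, of 15 and 36 reads, and in 17.4% and 23.9% of sense reads, of 46 and 71. Over all 24- to 33-nt reads it stood in 27.6% in SG and in 26.2% and 28.2% in L/Z.

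**Figure D5:**
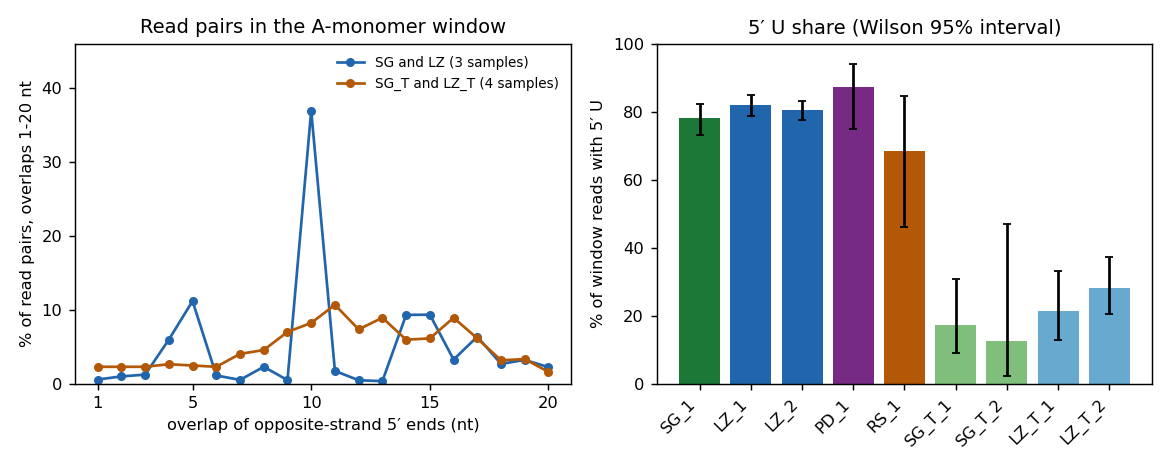
Left, the percent of opposite-strand read pairs at each 5′ overlap from 1 to 20 nt, summed over the 3 SG and L/Z samples and over the 4 tagged samples. Right, the percent of window reads that start with U in each sample (Wilson 95% intervals): the first set peaks at 10 nt with 37.0% of pairs against 8.22% in the tagged samples, and every tagged sample is at or below 28.04% U.

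Over the 9 samples, the sequences outside the 6 whose log2(RPM + 1) was most like that of L1Md_A_5end, among 134 candidates that averaged 1 RPM or more, were IAPEY_LTR (Pearson r = 0.99), L1_Mm_orf2 (r = 0.96) and MMERVK10D3_I (r = 0.93). For L1Md_Gf_5end they were L1_Mm_orf2 (r = 0.84), RLTR10 (r = 0.84) and IAPEY2_LTR (r = 0.83). Among the 6 themselves, F and VL1 were closest (r = 0.99), and A and VL2 were the farthest apart (r = 0.35). These values describe 9 samples of 2 sets that share library scaling, with no test. IAPEY_LTR, the terminal repeat of an endogenous retrovirus, stood at 21.02 RPM in SG, 12 and 27.8 RPM in L/Z, 0.93 RPM in P/D and 0.44 RPM in RS.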

How the data were processed

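Small RNA libraries of 9 biological samples were analysed (5 single libraries, and 4 samples as 8 technical libraries). The authors trimmed adapters with cutadapt (version not given in the sources used here), removed microRNA and abundant noncoding RNA reads, matched reads to retrotransposon consensus sequences with SeqMap at up to 2 mismatches, divided reads among their matches, and deposited RPM (reads per 1000000 reads of the library) by strand and length. They also deposited a count of reads for every distinct sequence, which gave library totals, microRNA shares (reads of 18 to 26 nt whose first 18 bases match a RefSeq mature miRNA) and the window matches. Columns of no sample: 0.

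Rows that name no retrotransposon (6 in the first set, 8 in the second) were left out. RPM of technical replicates was averaged. limma (3.58.1, R 4.3.3) was fitted on log2(RPM + 1) for sequences with a mean of at least 1 RPM, with Benjamini-Hochberg adjustment at 0.05, and was tested on simulated data. Fold changes on this scale understate those of low sequences. The window sequence came from the study's bisulfite amplicon with converted bases read back as C. The members, lists and tests were chosen with earlier results of these data known. The named sequences were all 6 members, the 3 sequences most correlated with each of the 2 most abundant members, the 3′ row of an element with both ends, L1_Mm_orf2, and the 3 most frequent window reads of each strand with their partners.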

Additional observations from a re-analysis of the deposited data

Results flagged for a closer look

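The antisense share of L1_Mus3_5end moved in opposite directions in the sets: it was higher in both L/Z replicates than in SG in the first set (mean difference 2.84 percentage points) and lower in both tagged L/Z replicates than in both tagged SG replicates (mean difference -19.6 percentage points). The difference between these was not tested, and the tagged shares rest on 2.17 to 14.7 reads per sample.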

How the results depend on the processing

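The 6 calls in tagged L/Z against L/Z kept their direction, with 4 to 6 calls under every alternative; leaving out 1 replicate gave 5 to 6, and the replicate block gave 6. In tagged SG against SG the alternatives gave 4 to 6 lower, apart from scaling to the listed total, with 3 calls, of which 2 were higher; leaving out 1 replicate gave 6 throughout. In tagged L/Z against tagged SG, where none was called, a pseudocount of 0.5, a pseudocount of 5, no filter and scaling to microRNA reads (chosen after seeing the data) each gave 1 call, scaling to the listed total gave 6 and the replicate block gave 2; leaving out 1 replicate gave 0. For the difference between the set differences, scaling to the listed total gave 4 calls and scaling to microRNA reads 2. Under the alternatives the share of all sequences called was not counted, so these counts of members have no background beside them. Scaling to the listed total turned round 10 estimates: in tagged L/Z against tagged SG, A (-1.90), F (-1.99), Gf (-2.61) and VL1 (-1.68); in tagged SG against SG, Gf (1.78) and VL2 (1.18); in the difference of the set differences, A (-1.94), F (-1.72), Gf (-2.58) and VL1 (-1.65). Scaling to microRNA reads turned round 6, none called: in tagged L/Z against tagged SG, F (-0.17) and Gf (-0.57); in the difference of the set differences, A (-0.50), F (-0.45), Gf (-1.10) and VL1 (-0.68). The 100-bp runs alone turned VL1 round in tagged L/Z against tagged SG (-0.0327). Leaving out 1 replicate turned estimates round in tagged L/Z against tagged SG for F (-0.20 to 0.87), Gf (-0.31 to 0.62) and VL1 (-0.29 to 0.56), and in the difference of the set differences for Gf (-0.54 to 1.27), VL1 (-0.32 to 0.99) and Mus3 (-1.03 to 0.13), all uncalled. The Gf call in tagged SG against SG was lost with a pseudocount of 5, no filter, the 100-bp runs alone, microRNA scaling and sense reads alone. The cause was not tested. Replicate numbers were shared by number only: same-numbered deviations correlated at 0.11 in the tagged set and at -0.19 between L/Z and tagged L/Z, and crossing the numbers gave 0 and 6 calls.

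Without the A and Gf types the antisense share was 71.2% in SG, 75.3% in L/Z, 93.1% in P/D, 84.2% in RS, 58.7% in tagged SG and 45.5% in tagged L/Z. Per 1000000 24- to 33-nt reads, window matches were 78.5 in SG, 73.3 in L/Z, 4.19 in P/D, 1.82 in RS, 28.5 in tagged SG and 50.6 in tagged L/Z. The replicates stood at 41.6 and 104.9 in L/Z and at 41.8 and 59.4 in tagged L/Z, so on this scale the L/Z samples of the sets overlapped. Exact matches alone gave 33.6 in SG, 1.96 in P/D, 0.384 in RS, 11.2 in tagged SG and 18.6 in tagged L/Z, and distinct sequences, per 1000000 distinct 24- to 33-nt sequences, 114.5 in SG, 11.6 in P/D, 5.44 in RS, 96.0 in tagged SG and 186.8 in tagged L/Z, beside 94.8 in L/Z. Depth limits F, Mus3, VL1 and VL2 in the tagged samples, which rest on 0.917 to 34.5 reads.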
